A study of Mus musculus with 6 samples.

Results

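Reverse transcription stops at RNA G-quadruplex motifs were compared between day 7 cells and RNA examined in vitro, at the 3497 of 5538 listed sites (63.1%) that had 20 or more K+ reads in all 4 tables, 2 from cells and 2 from the in vitro pipeline. The 3497 sites belong to 1722 gene entries and were kept from the listed sites by read coverage. All 5538 listed sites already had a higher K+ than Li+ stop share in both in vitro tables. The cells were a clonal TsixTST/+ mouse embryonic stem cell line (129S1/CastEiJ x 129S1) whose genotype label reads WT. They had been differentiated as embryoid bodies for 7 days without leukemia inhibitory factor, after removal of feeder cells, in suspension until day 3 and adherent after it. For the in-cell tables, whole cells were treated with 4% dimethyl sulfate (DMS) for 7 min, and poly(A)+ RNA from the chromatin fraction was cut to fragments of 60 to 80 nt and reverse transcribed in K+ or in Li+. The in vitro tables are deposited with the day 7 samples and numbered as replicates 1 and 2. How that RNA was handled is not described in the labels, so their identity rests on the table names and the series' design text, and every allele and culture step of the line is taken to be shared by both preparations. All cells came from 1 clone, and separate cultures are not stated for the replicates. The p-values then reflect only how far these samples differ from each other, which may be technical.

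A G-quadruplex forms when 4 runs of guanines stack into planar layers held together by a central cation. K+ fits that channel and Li+ does not, so a folded motif blocks reverse transcriptase in K+ far more than in Li+. DMS methylates guanines that are not engaged in a quadruplex, and a motif methylated in the cell can no longer refold in the tube. A K+ stop in DMS-treated cells is therefore read as protection of that motif in the living cell, while a K+ stop in RNA folded in vitro shows what the bare sequence can do. Motifs with long guanine runs and short loops are known to form the more stable quadruplexes.

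The motifs below are those on which the comparison turns. They are printed 5′ to 3′ in DNA letters as deposited, on the RNA strand, with runs of 2 or more guanines in capitals. Coordinates are 1-based on GRCm38.p6 (mm10). Motifs longer than 30 bases are shown by their last 30 bases, which lie next to the stop. The first group holds some of the largest falls in log2 odds and some of the lowest pooled in-cell shares. It does not hold every site that kept least.

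Nup188, 3′ UTR, canonical, chr2:30344041-30344063 (+): GGGcaGGGagccaaGGGGctGGG
Bop1, 3′ UTR, bulged, chr15:76453187-76453208 (−): GGGtGGcctGGaagaGGGtGGG
St13, 3′ UTR, two-quartet, chr15:81365123-81365140 (−): GGGcaGGGaGGtgagtGG
Eef2, 3′ UTR, bulged, chr10:81182258-81182284 (+): GGactGGcaGGctgtGGGGtGGGcGGG
Dusp9, 3′ UTR, canonical, chrX:73643030-73643048 (+): GGGaGGGcatGGGcctGGG
Bex3, coding, two-quartet, chrX:136271362-136271376 (+): GGGaGGaGGtgaGGG

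The second group holds examples that kept 50.8% or more and shows how unlike their guanine runs were. Other sites that kept as much or more are given by their values further on.

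Setd5, 3′ UTR, canonical, chr6:113153285-113153309 (+): GGGGGGGaGGGtGGGGGGaGGGGGG
Arpc4, 3′ UTR, long-loop, chr6:113388891-113388922 (+): gttGGGtGGGcattGGatgtGGGaGGtGGG
Cmc4/Mtcp1, 5′ UTR, bulged, chrX:75416438-75416468 (−): GGcagctagctGGGcagcaGGGaGGcGGtg
Ankrd60, coding, bulged, chr2:173578302-173578332 (−): GGatgacgcGGGccatgcGGaGGGcGGcag

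Canonical motifs with a longest loop of 2 bases or of 7 bases complete the set, because the share kept differed with loop length among canonical motifs. These examples go against the order of the medians, which were 16.9% at 2 bases and 11.7% at 6 to 7. Chd4 and Huwe1 kept less than the median of their loop class, and Stip1 and Ipo7 kept more than theirs.

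Chd4, 3′ UTR, longest loop 2, chr6:125130144-125130160 (+): GGGGcaGGGaGGGaGGG
Huwe1, 5′ UTR, longest loop 2, chrX:151803426-151803443 (+): GGGttGGGacGGGctGGG
Stip1, 3′ UTR, longest loop 7, chr19:7020800-7020825 (−): GGGGcagtGGGtgcatacGGGGaGGG
Ipo7, 3′ UTR, longest loop 7, chr7:110055280-110055305 (+): GGGatttGGGGaGGGGttaacttGGG

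Over the listed sites the in-cell tables held 2558224 and 1621517 K+ reads, and the in vitro ones had 1982412 and 2258923. Li+ reads ran from 921254 to 4212056, and ribosomal and mitochondrial RNA took 27.9% to 73.1% of the listed reads. Of the markers, 4 of 10 for undifferentiated cells, 10 of 13 for day 7 cells and 1 of 8 for feeder cells had a listed site. The summed coverage of the day 7 markers was 14581 and 9163 reads per 1e6 listed reads in day 7 cells and 10814 and 11044 in vitro, against 89.8 and 0 in day 0 cells. H19 alone gave 10838 and 4885 of these in day 7 cells and 5342 and 5214 in vitro. Xist gave 714 and 876 in day 7 cells and 2948 and 3142 in vitro. The undifferentiated markers summed to 520 and 1176 in day 7 cells and 999 and 1111 in vitro, against 4825 and 4714 in day 0 cells. Coverage over sites correlated between the in vitro tables and day 7 cells with Spearman's rho of 0.69 to 0.82, and with day 0 cells with 0.51 to 0.61 (n = 5525 sites, which share base composition). In in-cell replicate 2 the K+ library stood slightly below Li+ over sites (median difference −0.18 percentage points, against 1.15 in in-cell replicate 1, at 2648 sites with 20 reads in all 8 libraries). The cation of each column is taken from the file headers. An exchange of the K+ and Li+ columns in that replicate, or in day 0 replicate 2, was not tested, and each K+ value of these replicates rests on those headers. Results are therefore also given by replicate. All 5538 listed sites had more K+ than Li+ stops in both in vitro tables, while the labels do not describe how the sites were listed. If sites were listed for their in vitro K+ stops, a lower share in cells would be favoured by the listing, and this was not tested.

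The share of K+ reads that stopped at a site was 4.44% and 2.94% (medians over sites) in day 7 cells, against 44.2% and 46.1% in vitro. The means of these medians were 3.69% ± 1.06 in cells and 45.2% ± 1.31 in vitro (SD, n = 2 each), a difference of −41.5 percentage points. The ranges did not overlap, but an exact permutation test, two-sided, gives p = 0.33 at the smallest with 2 against 2. In Li+, the control in which quadruplexes are not stabilised, the medians were 3.11% and 3.45% in cells and 5.71% and 5.13% in vitro, a difference of −2.14 points at 2709 sites (exact permutation p = 0.33).

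**Figure D1:**
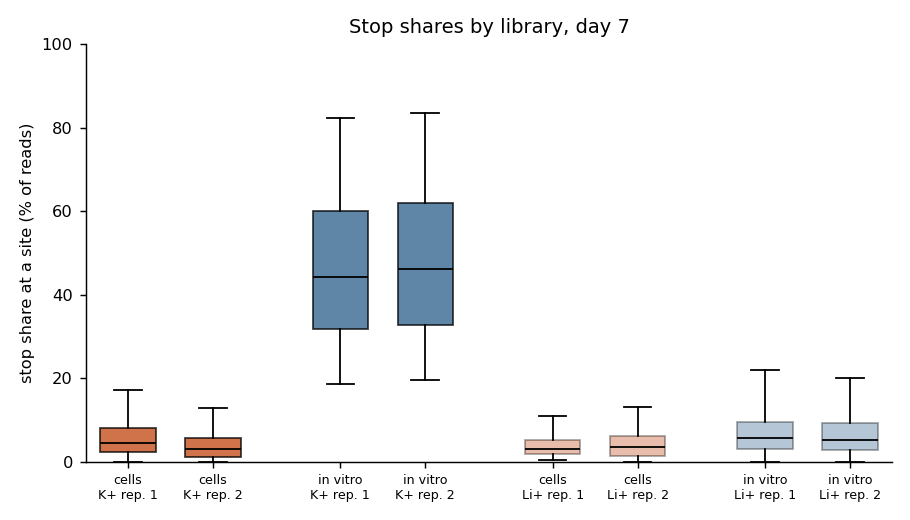
Stop share per site (percent of reads) in each day 7 library, in cells (orange) and in vitro (blue), in K+ (dark) and Li+ (pale). Lines are medians, boxes quartiles and whiskers the 5th to 95th percentiles over the 3497 sites, for Li+ those with 20 or more reads. The in vitro K+ medians of 44.2% and 46.1% stand above the 6 other libraries, whose medians lie between 2.94% and 5.63%.

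At 3487 of the 3497 sites (99.7%) both in-cell shares were below both in vitro shares. In limma on log2 odds of stopping, with Benjamini-Hochberg adjustment over all sites, 3476 sites (99.4%) were lower in cells and 2 (0.0572%) were higher. The median difference was −4.30 on the log2 odds scale, with quartiles of −5.22 and −3.46. Set as a ratio, a site kept a median of 8.91% of its in vitro share in cells (quartiles 5.15% and 14.7%), and by pair the medians were 10.7% and 6.90%. At 131 sites 25% or more was kept in both pairs, and at 17 sites 50% or more. No K+ stop was read in either in-cell table at 121 sites.

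In Li+, the median difference was −0.86 on the log2 odds scale, against −4.30 in K+. Of 2709 sites, 82 (3.03%) were lower in cells and 4 (0.148%) higher in limma, with 616 at an unadjusted p under 0.05. These counts depended on the settings, with 0 calls without the precision weights (478 sites at an unadjusted p under 0.05). The 4 higher sites, named after their values were seen, were Gm45713/Rpl13a, CT010467.1 (motif from 39846555), Snord118 and Rpl3-ps1. The K+ against Li+ odds were lower in cells than in vitro at 2008 of 2648 sites (75.8%) and higher at none (limma interaction, 2092 sites at an unadjusted p under 0.05). Without in-cell replicate 1 the count was 1120, and without in-cell replicate 2 it was 1257.

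What remained in cells was small in K+ and close to Li+. K+ stops exceeded Li+ stops in both in-cell replicates at 821 of 2648 sites (31%), and in both in vitro replicates at all 2648. The latter held at every listed site, so it is not a result about these 2648. Counted singly, replicate 1 had K+ above Li+ at 1831 sites and replicate 2 at 1116. The K+ minus Li+ difference had a median of 1.15 and −0.18 percentage points in cells, against 33.7 and 35.2 in vitro. At 187 sites (7.06%) the in-cell K+ share was at least 2 times Li+ in both replicates. Of those, 49 (26.2%) were canonical, against 391 of all 2648 sites (14.8%).

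The size of the in vitro share said little about how much of it was kept. Sites with an in vitro share under 20% had in-cell medians of 2.36% and 1.65%, and sites with 80% or more had 8.97% and 6.38%. The share kept was 12.5% and 9.07% in those bins, and between 8.11% and 9.39% in the 3 bins between them. Over sites the K+ shares of in-cell replicates 1 and 2 correlated with a Pearson's r of 0.64, those of the in vitro replicates with 0.91, and in-cell against in vitro with 0.35 and 0.28 in pairs 1 and 2 (n = 3497, a description, since sites share libraries). In-cell K+ shares correlated more with in-cell Li+ shares, with a Pearson's r of 0.77 in replicate 1 and 0.59 in replicate 2 (n = 2648).

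**Figure D2:**
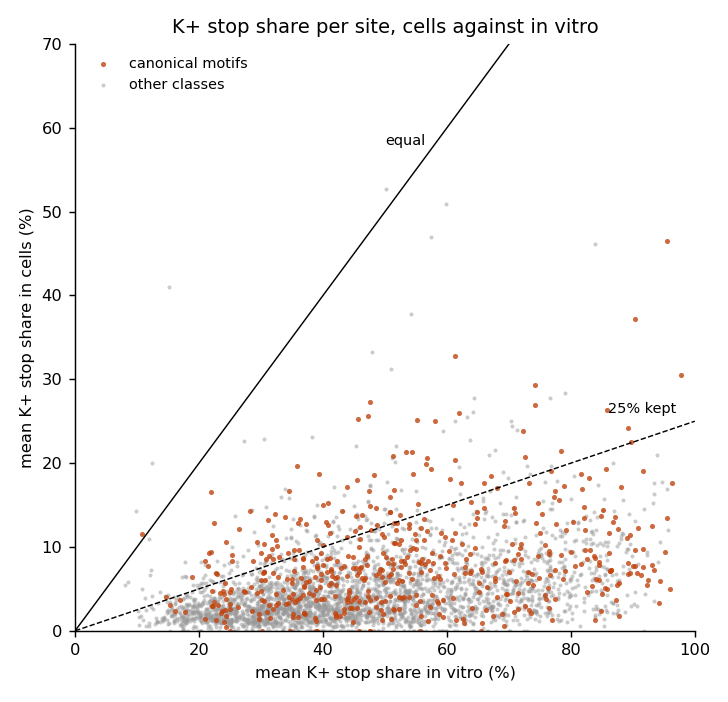
Mean K+ stop share in cells against the mean in vitro (percent of reads, n = 2 tables each) for 3497 sites, with the 511 canonical motifs in orange. The solid line marks equal shares and the dashed line 25% kept. Nearly all sites lie under the dashed line, and the highest in vitro shares are spread along the bottom with the rest.

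The 12 largest falls in log2 odds among deeply covered sites lay in Nup188, Bop1, St13, Hmox1, Eef2, Ahnak, Nacc1, Ddx17, Vat1, Rer1, Samm50 and Drap1. Of the 12, 10 were in 3′ UTRs, as were 1937 of all 3497 sites. The in vitro K+ medians were also higher in 3′ UTRs (47.7% and 49.3%) than in coding sequence (40.2% and 40.4%). Nup188, a nuclear pore protein, had K+ shares of 0.559% and 1.92% in cells and 82.5% and 85.4% in vitro. Its in-cell stops were 1 of 179 and 2 of 104 reads, with exact 95% intervals of 0.014% to 3.07% and 0.234% to 6.77%. This motif stopped more than 4 in 5 reads in vitro and almost none in cells, a difference of −8.61 ± 0.97 (log2 odds, SE, limma adjusted p = 8.53e-06). Li+ shares there were 0.287% and 4.40% in cells and 1.05% and 2.50% in vitro.

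Bop1, which processes the ribosomal RNA precursor of the large subunit, had K+ shares of 1.67% and 1.24% in cells and 85.5% and 85.0% in vitro. St13, a cochaperone of Hsp70, had 3.96% and 1.96% in cells and 91.1% and 90.3% in vitro. Hmox1, the heme oxygenase that degrades heme, had 4.93% and 3.88% in cells and 90.5% and 93.4% in vitro. The preparations were far apart in all 3, and the differences were −8.36 ± 0.76, −8.27 ± 0.54 and −7.84 ± 0.54 on the log2 odds scale (limma adjusted p = 2.29e-06, 7.6e-07 and 8.18e-07).

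Eef2, the elongation factor that moves the ribosome along the message, gave the best counted fall. Its 3′ UTR motif stopped 34 of 1417 and 39 of 1585 reads in cells (2.40% and 2.46%), against 82.3% and 87.3% in vitro. The exact 95% intervals were 1.67% to 3.34% and 1.76% to 3.35% in cells. The difference was −7.81 ± 0.55 (limma adjusted p = 9.05e-07), and the in-cell Li+ shares were 1.81% and 4.19%. A longer, overlapping Eef2 entry at chr10:81182252-81182311 had 1.43% and 1.29% in cells and 24.6% and 20.2% in vitro, so its reads are not independent of the first.

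Some of the 12 left no K+ stop in 1 in-cell replicate. Rer1, which returns membrane proteins to the endoplasmic reticulum, had 2.88% and 0% in cells (0 of 105 reads, which allows up to 2.86%) and 72.1% and 73.6% in vitro. Drap1, a partner of a general transcription repressor, had 2.64% and 0% in cells (0 of 183 reads, up to 1.64%) and 74.5% and 51.8% in vitro. Without in-cell replicate 1 Drap1 had an adjusted p of 0.0589. Ahnak, a giant scaffold protein, had 7.42% and 1.85% in cells and 85.2% and 95.4% in vitro.

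A log2 odds scale gives the largest falls to the highest in vitro shares. Relative to the median site, 177 sites (5.06%) fell further on that scale, and 173 of them had an in vitro share of 60% or more, as did 899 of all 3497. On the scale of the share itself, with each library centred on its median, 1 site (0.0286%) fell further than the median site, the Eef2 motif printed above (−1.68 ± 0.42 on the log2 share scale, limma adjusted p = 0.0339). That call was lost in 4 of 12 alternatives, with limma adjusted p-values of 0.112 at a pseudocount of 0.1, 0.0844 without weights, 0.455 without in-cell replicate 1 and 0.18 without in-cell replicate 2. Ddx17 and Samm50, a DEAD-box helicase and a mitochondrial outer membrane protein, kept 7.76% and 8.75%, against the median of 8.91%.

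Ranked instead by the upper 95% bound of the pooled in-cell share over the in vitro share, the lowest were Bex3, Dusp9, mt-Nd6, Nacc1 and Eef2. This order was chosen after the results were seen. Bex3 had 1 stop in 930 reads and 3 in 425 in cells (0.108% and 0.706%), against 34.9% and 38.2% in vitro, so it kept 1.11%. Dusp9, a phosphatase of MAP kinases, had 0.713% and 1.04% in cells and 60.5% and 65.1% in vitro. mt-Nd6, the complex I subunit encoded on the mitochondrial light strand, had 0.693% and 0% in cells (0 of 304 reads, up to 0.987%) and 30.4% and 40.4% in vitro. At Bex3, Dusp9 and mt-Nd6 the in-cell Li+ shares ranged from 0.597% to 3.70%, beside in-cell K+ shares of 0% to 1.04%.

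At the other end, 311 sites in 250 gene entries (8.89%) lost less than the median site on the log2 share scale, in limma after centring each library. They kept 16.3% to 269% of their in vitro share, with a median of 29.3%. Of these 311, 245 were also called on the log2 odds scale, where 302 sites (8.64%) passed. The call needs the precision weights: without them 0 sites passed (969 at an unadjusted p under 0.05), and without in-cell replicate 1 the count was 77. At the 265 with enough Li+ reads, K+ shares had medians of 14.5% and 10.0% in cells and 42.7% in each in vitro table. In-cell Li+ medians there were 8.20% and 7.89%, and 166 of the 265 (62.6%) had K+ above Li+ in both in-cell replicates. The same in-cell K+ values chose these sites, so nothing is read from that share against the 31% of all sites.

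Arpc4, a subunit of the Arp2/3 complex that nucleates branched actin, kept 75.0% of its in vitro share. Its long-loop motif had K+ shares of 27.1% and 18.6% in cells and 31.2% and 29.8% in vitro, with 71 of 262 and 22 of 118 reads stopped in cells. The exact 95% intervals were 21.8% to 32.9% and 12.1% to 26.9% in cells. Both in-cell values lay below both in vitro values, but the difference of −0.51 ± 0.30 did not pass (limma adjusted p = 0.111). In-cell Li+ shares were 11.4% and 8.16%, below K+ in both replicates.

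Setd5, a SET-domain chromatin protein, had 17% and 11.6% in cells and 27.2% and 29.1% in vitro, with Li+ at 7.76% and 6.27% in cells. Its motif is made almost wholly of guanines with loops of 1 base, and it kept 50.8%. Chmp4b, a subunit of the membrane-cutting ESCRT-III complex, had 12.9% and 11.3% in cells and 28.3% and 24.7% in vitro. Both genes were lower in cells in limma (adjusted p = 0.0023 and 0.00076) and still kept 45.7% or more.

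Other sites kept much of their share with in-cell Li+ stops that were also high. Ankrd60 had K+ shares of 52.3% and 49.4% in cells and 67.3% and 52.4% in vitro, and Li+ shares of 48.8% and 46.2% in cells and 48.8% and 33.1% in vitro. The 5′ UTR site shared by Cmc4 and Mtcp1 had 54.6% and 50.8% in cells and 53.6% and 46.8% in vitro, with Li+ at 48.9% and 46.7% in cells, and its difference of 0.14 ± 0.22 did not pass (limma adjusted p = 0.523). CT010467.1, which lies within an 18S ribosomal RNA repeat by RefSeq, had 51.5% and 42.5% in cells and 54.8% and 60.0% in vitro, with Li+ at 37.2% and 41.4% in cells. Ndufa13/Yjefn3 (31.0% and 31.5% in cells, 47.8% and 54.2% in vitro), Lypla2 (31.9% and 14.4% in cells, 40.6% and 35.8% in vitro) and Pnck (24.4% and 42.1% in cells, 53.6% and 42.1% in vitro) also had in-cell Li+ shares of 18.9% or more.

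Scarna2, a small RNA of Cajal bodies that guides modification of other RNAs, had 17.7% and 9.59% in cells and 26.2% and 25.3% in vitro. Nnat, the imprinted membrane protein neuronatin, had 12.3% and 6.25% in cells and 20.7% and 22.4% in vitro, with in-cell Li+ of 11.3% and 11.7%. Without in-cell replicate 2 Nnat, Scarna2, Lypla2 and CT010467.1 had adjusted p-values of 0.0526, 0.109, 0.251 and 0.212, and without in-cell replicate 1 Pnck had 0.317.

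The sites that passed as higher in cells numbered 2, and both were high in Li+ too. Gm45713/Rpl13a, an entry overlapping the gene of a protein of the large ribosomal subunit, had K+ shares of 45.8% and 36.2% in cells and 17.6% and 12.9% in vitro (1.98 ± 0.34, limma adjusted p = 0.000162). Its Li+ shares were 33.8% and 29.4% in cells and 5.95% and 4.33% in vitro. Snord118, a small nucleolar RNA needed to process ribosomal RNA, had 21.6% and 18.5% in cells and 9.61% and 15.2% in vitro (0.88 ± 0.33, adjusted p = 0.0202), with Li+ at 20.0% and 18.3% in cells. Snord118 did not pass without in-cell replicate 1 (adjusted p = 0.129) or without in vitro replicate 1 (0.17).

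**Figure D3:**
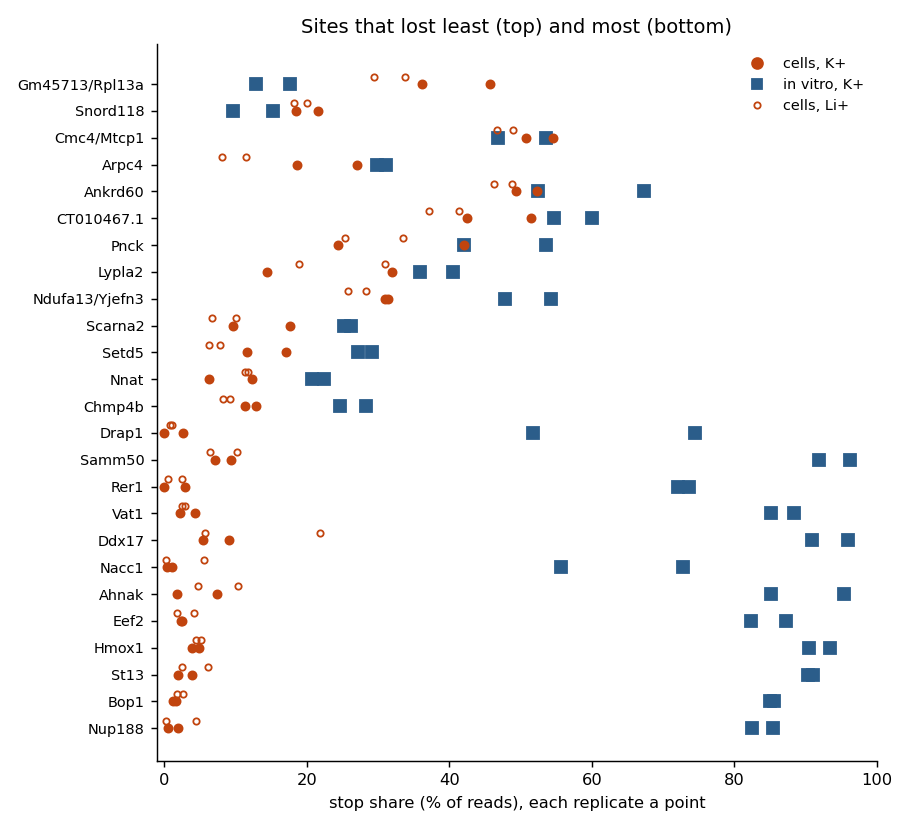
Stop share (percent of reads) at the sites that lost least or gained (top) and most (bottom) by log2 odds, with each replicate as a point: K+ in cells (filled orange), K+ in vitro (blue squares) and Li+ in cells (open orange, raised). In the bottom 12 genes in-cell K+ shares are under 10% and in vitro shares over 50%. In the top part K+ in cells comes within reach of in vitro, and for most of these genes Li+ in cells lies beside it.

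Among motif classes, canonical motifs (4 runs of 3 or more guanines with loops of 1 to 7 bases) kept most. The 511 canonical sites had K+ medians of 8.58% and 5.26% in cells and 50.8% and 51.6% in vitro, and kept a median of 14.2%. Long-loop motifs kept 9.21%, bulged motifs 8.81%, two-quartet motifs 7.62% and G-rich potential quadruplexes 7.15%. The 38 G-rich potential triplexes kept 10.5%. Of the canonical sites, 126 (24.7%) lost less than the median site, against 8.89% of all sites, and they made up 40.5% of the sites that lost less, against 14.6% of those tested. No test across classes was run, since sites are not replicates, but the order of canonical over bulged held in pair 1 (17.3% against 10.6%) and in pair 2 (10.3% against 6.87%).

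**Figure D4:**
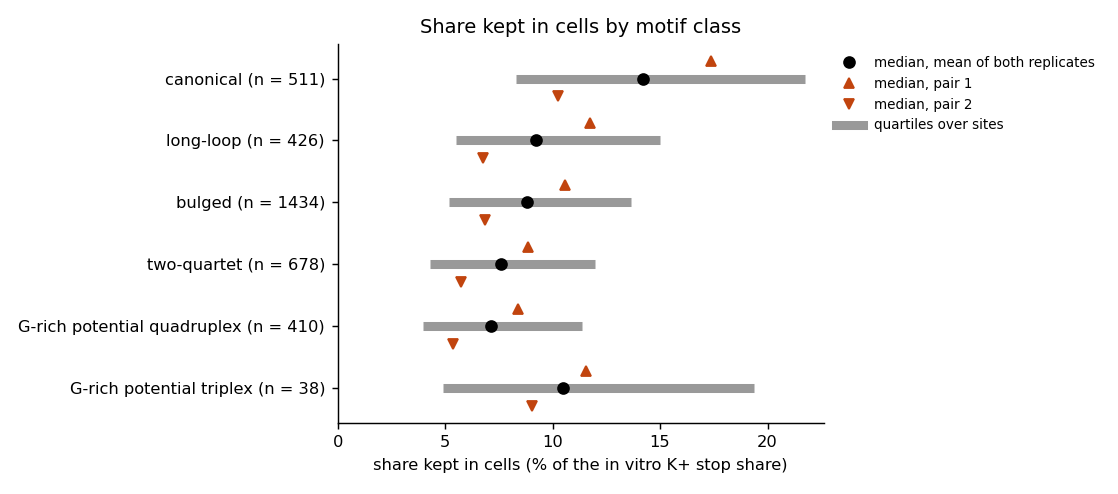
Share of the in vitro K+ stop share kept in cells (percent) by motif class. Black points are medians of the ratio of 2-replicate means, grey bars quartiles over sites, and triangles the medians of pair 1 (up) and pair 2 (down). Canonical motifs have the highest median in both pairs (17.3% and 10.3%), and pair 2 lies below pair 1 in every class.

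Canonical motifs differed from the other classes at like in vitro shares. With an in vitro share under 40%, canonical sites kept 17.3% and other classes 9.27%. From 40% to 60% the values were 15.1% and 7.58%, and from 60% up 11.1% and 7.89%. The share kept was 14.9% for canonical against 8.51% for other classes in 3′ UTRs and 11.1% against 7.38% in coding sequence, and in 5′ UTRs the values were 10.1% and 9.98% (26 canonical sites). In the K+ minus Li+ difference, canonical sites had in-cell medians of 3.87 and 0.52 percentage points, and 198 of 391 (50.6%) had K+ above Li+ in both in-cell replicates, against 623 of 2257 (27.6%) in other classes. By region that share was 5.88% of canonical sites (1 of 17) against 26.7% of other classes in 5′ UTRs, the opposite order. The canonical difference in K+ minus Li+ was small in replicate 2.

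Within canonical motifs the share kept went down as the longest loop grew. The 39 sites whose loops were all 1 base kept 27.3% (30.4% and 25.3% by pair), with K+ medians of 15.0% and 12.1% in cells and 54.6% and 53.6% in vitro. The share kept was 16.9% at a longest loop of 2 bases, 14.2% at 3, 13.6% at 4 to 5 and 11.7% at 6 to 7 (n = 61, 63, 147 and 158). In vitro the K+ medians were highest at a longest loop of 2 bases (62.9% and 64.9%) and were 46.4% and 46.5% at 6 to 7 bases. In-cell medians at 6 to 7 bases were 6.47% and 3.36%. Length of the guanine runs was not separated from loop length. Of the sites with 1-base loops, 25 (64.1%) lost less than the median site, and at 6 to 7 bases 17 did (10.8%).

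Li+ stops followed loop length as well, and their part in the K+ order was not tested. In-cell Li+ medians were 6.38% and 8.21% with 1-base loops and 3.21% and 4.26% at 6 to 7 bases, and in vitro they were 19.5% and 14.8% against 6.19% and 5.26%. The K+ minus Li+ difference in cells had medians of 7.83 and 3.32 percentage points with 1-base loops and 2.19 and −0.03 at 6 to 7 bases. K+ was above Li+ in both in-cell replicates at 21 of 30 sites with 1-base loops and at 47 of 118 with loops of 6 to 7 bases (39.8%).

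**Figure D5:**
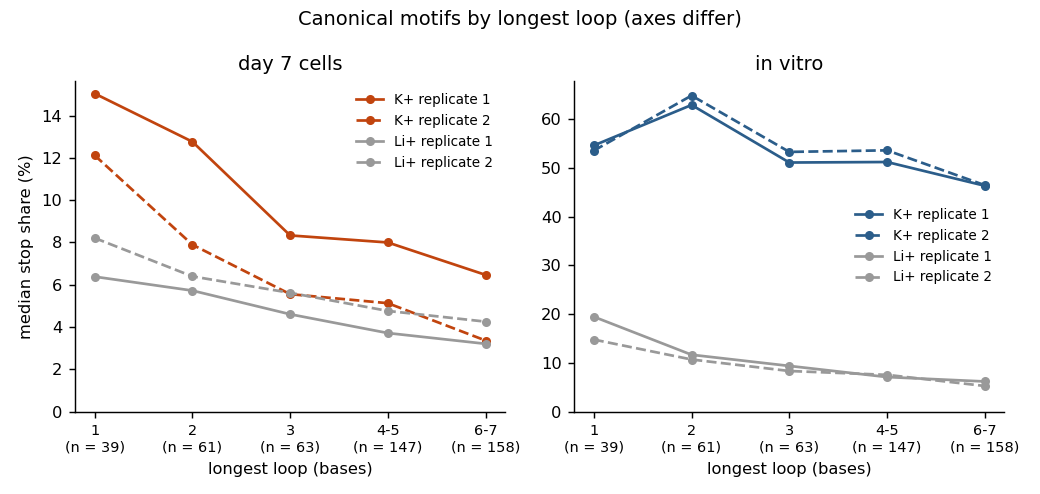
Median stop share (percent of reads) of canonical motifs by the length of their longest loop in bases, in day 7 cells (left) and in vitro (right), for each K+ (coloured) and Li+ (grey) library; the y axes differ. In cells K+ medians run from 15.0% and 12.1% with 1-base loops to 6.47% and 3.36% at 6 to 7 bases, while in vitro K+ stays at 46.4% or more.

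In-cell libraries of other days, which the choice of sites did not use, also had higher K+ medians with 1-base loops than at 6 to 7 bases, at those of the sites with 20 reads. With 1-base loops K+ medians were 9.52% and 2.78% on day 0 (28 and 19 sites) and 14.3% and 9.23% on day 3 (15 and 22 sites). At 6 to 7 bases they were 2.80% and 1.56% on day 0 and 7.46% and 4.51% on day 3. In day 0 replicate 2 the Li+ medians were above K+, at 10.2% with 1-base loops and 3.85% at 6 to 7 bases. K+ medians at all canonical sites against all sites were 3.57% and 2.17% against 2.50% and 1.93% on day 0, and 9.52% and 5.41% against 5.41% and 3.03% on day 3. Li+ medians were 3.70% and 6.09% against 2.78% and 3.33% on day 0, and 3.33% and 2.33% against 2.48% and 1.89% on day 3. On day 0 canonical sites thus had Li+ medians above K+ in both replicates.

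Single motifs of the same loop length differed widely. Ddit4, a stress-induced inhibitor of the mTOR kinase, has a longest loop of 2 bases, and had 13.7% and 7.49% in cells and 28.4% and 30.2% in vitro. Chd4, the ATPase of the NuRD remodelling complex, also has a longest loop of 2 bases but mostly runs of 3, and had 5.88% and 7.95% in cells and 88.5% and 92.9% in vitro. Huwe1, a HECT ubiquitin ligase, with runs of 3 only, had 4.44% and 5.45% in cells and 86.3% and 85.3% in vitro. Ddit4 thus kept 36.2%, Chd4 7.62% and Huwe1 5.77%. Stip1 and Ipo7, a cochaperone and an importin, with a longest loop of 7 bases, kept 15.2% and 19.7%, above the median of their loop class.

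By the longest run of guanines, the share kept was higher with longer runs from 3 guanines up. The 243 sites whose longest run was 2 guanines kept 7.89%, runs of 3 kept 7.23%, runs of 4 kept 8.52%, runs of 5 kept 10.1% and runs of 6 or more kept 12.7%. Sites that lost less than the median site were 7.41% of those with runs of 2, 5.11% with 3, 5.90% with 4, 10.7% with 5 and 20.5% with 6 or more, so runs of 2 stood above runs of 3 on both measures. From 3 guanines up the order was present inside and outside the canonical class. Canonical motifs kept 8.50% with a longest run of 3 and 19.9% with 6 or more, and other classes kept 7.13% and 11.2%. In-cell Li+ medians were also higher with longer runs, at 2.51% and 2.86% with 3 and 4.18% and 4.55% with 6 or more. For runs of 3, 4, 5 and 6 or more, in-cell K+ minus Li+ medians were 0.71, 0.99, 1.52 and 2.16 points in replicate 1. In replicate 2 they were −0.20, −0.35, 0 and 0. The part of Li+ stops in the K+ order by run length was not tested.

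By transcript region, 3′ UTR sites kept 9.44%, coding sites 7.62%, 5′ UTR sites 9.98% and noncoding transcripts 11.7% (n = 1937, 817, 267 and 140). Sites that lost less than the median site made up 10.4%, 4.04%, 10.1% and 17.9% of these regions, against 8.89% of all. The Li+ control gave another order. Where Li+ reads sufficed, K+ was above Li+ in both in-cell replicates at 35.7%, 23.7%, 24.9% and 32.8% of sites. In-cell K+ minus Li+ medians were 1.74, 0.60, 0.62 and 1.29 percentage points in replicate 1. In replicate 2 they were −0.01, −0.31, −0.72 and −0.68.

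Gene lists showed the same fall at nearly every site, against a background of 99.4% of all sites lower in cells. Among nuclear long noncoding RNAs, 59 of 59 sites were lower, and they kept a median of 12.3%. Of the 59, 11 (18.6%) lost less than the median site, against 8.89% of all sites. Malat1, a nuclear speckle RNA, had 14.9% and 6.83% in cells and 44.9% and 41.4% in vitro at its most covered tested site, with in-cell Li+ at 13.1% and 7.56%, and its 12 sites kept 12.2%. H19, an imprinted noncoding RNA, had 5.25% and 2.30% in cells and 40.5% and 43.3% in vitro, and its 15 sites kept 15.5%. Imprinted genes, which share H19, had 35 of 35 sites lower and kept 10.3%. Peg10, derived from a retrotransposon, had 3.20% and 1.85% in cells and 54.6% and 59.8% in vitro.

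Ribosomal protein and translation factor genes had 65 of 67 sites lower and 1 higher, the Rpl13a entry. The remaining site lay in Rpl8, a protein of the large ribosomal subunit, with 5.68% and 5.28% in cells and 9.15% and 7.07% in vitro (−0.60 ± 0.41, limma adjusted p = 0.173). Genes of quadruplex helicases and binding proteins had 116 of 117 sites lower and kept 8.20%. Ncl, the nucleolar protein nucleolin, had 3.27% and 1.84% in cells and 22.9% and 22.8% in vitro, and Hnrnpa2b1, a splicing and RNA transport protein, had 2.57% and 1.26% in cells and 14.3% and 17.5% in vitro. Splicing factors and RNA helicases had 143 of 144 sites lower and kept 8.79%. Dhx9, an RNA and DNA helicase, had 4.73% and 2.46% in cells and 22.9% and 23.2% in vitro.

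Pluripotency regulators had 36 of 36 sites lower and kept 10.4%. Lin28a, which blocks maturation of let-7 miRNAs, had 10.8% and 8.38% in cells and 89.0% and 91.8% in vitro, and Dnmt3b, a de novo DNA methyltransferase, had 3.79% and 5.33% in cells and 79.3% and 80.1% in vitro. Lin28a kept 10.6% and Dnmt3b 5.72%, against 8.91% at the median site. Polycomb genes had 21 of 21 sites lower and kept 6.16%. Jarid2, a cofactor of the complex that methylates histone H3, had 4.80% and 2.53% in cells and 51.1% and 52.2% in vitro, and Epop had 4.58% and 1.50% in cells and 41.9% and 38.2% in vitro. Histone and remodeller genes had 58 of 58 lower and kept 7.53%.

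Cytoskeleton and lamina genes had 49 of 50 sites lower and kept 9.11%. Lmnb1, a B-type lamin of the nuclear envelope, had 10.8% and 5.74% in cells and 37.0% and 39.4% in vitro, and Tubb5, a beta tubulin, had 2.88% and 1.87% in cells and 31.6% and 32.7% in vitro. Of the glucose transporters in the glycolysis list (22 of 22 sites lower, 10.0% kept), Slc2a3 had 8.54% and 9.83% in cells and 33.2% and 33.3% in vitro, and Slc2a1 had 6.71% and 2.64% in cells and 53.8% and 53.6% in vitro. Slc2a3 lost less than the median site (limma adjusted p = 0.00455 after centring), with in-cell Li+ shares of 7.48% and 7.79%. Its adjusted p was 0.101 without weights and 0.0944 without in-cell replicate 2. Stress and immediate early genes had 49 of 49 sites lower and kept 11.3%, with 10 (of 49, against 8.89% of all sites) that lost less than the median site, among them Ddit4. Ccn1, a matricellular protein, was also among the 10 (8.50% and 5.76% in cells, 39.5% and 37.2% in vitro), but that call was lost in 6 of 12 alternatives, with limma adjusted p-values up to 0.527. Ddit4 had 0.0766 without weights and 0.0613 without in-cell replicate 1. The mitochondrial and ribosomal RNA list held mt-Nd6, given above, and mt-Rnr1, the small mitochondrial ribosomal RNA, with 5.34% and 4.62% in cells and 58.1% and 53.9% in vitro.

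The largest falls in the K+ against Li+ odds lay in Rab5c, Slc6a8, Hmgxb4, Huwe1 and Dnajc21. Rab5c, a GTPase of early endosomes, had K+ shares of 1.63% and 3.33% in cells and 86.5% and 84.7% in vitro, and Li+ shares of 2.42% and 5.13% in cells and 0% in both in vitro libraries. Slc6a8, the creatine transporter, had K+ shares of 4.82% and 1.10% in cells and 81.8% and 86.2% in vitro. Hmgxb4 had no K+ stop in cells (0 of 81 and 0 of 72 reads, up to 3.70% and 4.17%) and 39.7% and 48.3% in vitro. Dnajc21, a cochaperone in ribosome assembly, had 2.20% and 0% in cells and 43.9% and 34.4% in vitro.

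Sites on either side of the coverage threshold had similar medians. The 246 sites with a lowest K+ coverage of 20 to 22 reads had medians of 4.35% in cells and 53.6% in vitro, and the 300 sites with 17 to 19 reads had 4.24% in cells and 54.8% in vitro.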

How the data were processed

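Per the file headers, coverage and stops at each site were deposited for K+ and Li+ as whole read numbers, with no normalization. Each record runs over 2 lines, so these columns were recorded as other than plain counts, and limma was used. The tools were STAR, SAMtools and cutadapt and the builds GRCm38.p6 and mm10, per the submitters' processing notes. Versions, strand use and the handling of multiply mapped reads were not given in the sources used here.

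The stop share is stops over coverage. Its log2 odds (pseudocount 0.5) were fitted with limma 3.58.1 in R 4.3.3, with beta-binomial precision weights and no block, where each library of the test had at least 20 reads, and p-values were adjusted by Benjamini-Hochberg over all sites, with a threshold of 0.05. A second fit centred each library on its median log2 share. It was added after the general fall was seen. Library medians were set against each other by exact permutation, two-sided. Intervals are exact Clopper-Pearson at 95% and floors are 3 reads over the coverage; both cover counting error only, since reads carry no molecular identifiers. On simulated data for K+ in cells against in vitro at 3497 sites, 163 sites were called, 7 of them falsely, with 71.9% of 4-fold and 82.9% of 16-fold changes recovered. There only 200 sites were changed, in both directions, around the share pooled over cells and in vitro. In the data nearly all sites fell and in-cell shares were far lower, so these rates do not carry over to them.

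Named sites, 1 per gene, are the 12 largest falls and the 12 highest differences in log2 odds with 100 or more reads in all 4 tables (for the highest, an in vitro share of 20% or more), up to 6 rises, up to 5 interaction sites in each direction, and the 2 best covered genes of each list. The sites, gene lists and rules were chosen with earlier results of these data known. The sites shown for loops of 2 and 7 bases and for the lowest pooled shares were chosen after their values were seen. Loops were parsed in 468 of 511 canonical motifs, those with 4 separate runs. Some sites named by these rules, and some motif sequences, are not reported here. The printed motif is the deposited sequence without its last 10 bases. Values by pair (same replicate number) are descriptions. Alternatives were coverage minimums of 10 and 50, pseudocounts of 0.1 and 1, no weights, a replicate block, 1 site per gene, no ribosomal or mitochondrial RNA, Fisher's exact test in both pairs, and leaving out each replicate.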

Additional observations from a re-analysis of the deposited data

Results flagged for a closer look

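At 9 named sites K+ stops were below Li+ stops in both in-cell replicates and above them in both in vitro replicates, and limma's interaction passed at each. Rab5c, Hmgxb4, Huwe1 and Dnajc21 were named for their large falls in that interaction, so their passing was fixed by the rule. K+ above Li+ in vitro held at every listed site, so it is not a result about these sites. Over all 2648 sites, K+ was at or below Li+ in both in-cell replicates at 522, and above it in both in vitro replicates at all. The interaction was lower in cells at 75.8% of them, so the pattern was not particular to the named sites. The differences in K+ against Li+ log2 odds, in cells minus in vitro, were −10.13 for Rab5c, −8.45 for Hmgxb4, −8.21 for Huwe1, −7.88 for Dnajc21, −6.99 for Bop1, −6.34 for mt-Nd6, −4.97 for Jarid2, −2.98 for Tubb5 and −2.57 for Hnrnpa2b1. With 1 library left out the adjusted p was above the threshold for Hmgxb4 (0.0508 and 0.0555), mt-Nd6 (0.0703 and 0.0555) and Hnrnpa2b1 (0.0532 and 0.0597). At Huwe1 the in-cell shares were 4.44% and 5.45% in K+ and 8.11% and 12.2% in Li+, against 86.3% and 85.3% in K+ and 3.39% and 0% in Li+ in vitro. At Tubb5 they were 2.88% and 1.87% in K+ and 3.55% and 2.00% in Li+ in cells. Rab5c, Hmgxb4 and Dnajc21 had 48 to 72 K+ reads in their shallowest library, so their in-cell shares rest on few stops.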

How the results depend on the processing

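The difference in K+ share between cells and in vitro kept its direction at every named site but 1 under all alternatives. The exception was Cmc4/Mtcp1, which did not pass in any case and turned to −0.052 without in vitro replicate 2. The K+ calls numbered 3478, 1905 at a coverage minimum of 50 and 1712 with 1 site per gene, where fewer sites were tested, and 3379 to 4216 with a replicate left out. The Li+ calls were unstable: 86 became 158 with a pseudocount of 1, 0 with 0.1 (421 at an unadjusted p under 0.05), 0 without weights, 228 with the replicate block, 47 with 1 site per gene and 16 to 358 with a replicate left out. The K+ against Li+ calls went to 931 at a coverage of 50, 1039 with 1 site per gene and 1120 to 1827 with a replicate left out. Calls relative to the median site (312) went to 0 without weights, 169 with 1 site per gene, 479 on log2 odds and 77 to 289 with a replicate left out. Same-numbered samples deviated together with a correlation of 0.03 over 3497 sites. In-cell stops were few at most sites, which lowers such a correlation, so it cannot decide whether these samples share a source. Other replicate block counts were 3483 for K+, 2077 for K+ against Li+ and 464 relative to the median site, and it changed no direction. The median K+ difference was −36.5 points at a coverage of 50, and the Li+ difference −4.17 from summed reads. The canonical shift of 0.48 log2 odds over all sites stayed between 0.34 and 0.62. Of the changes at named sites, 35 losses came without weights, where low coverage counts as much as high. Depth limits the sites with few in-cell stops; at 20 reads a share of 0 allows a wide range. The labels do not describe the in vitro preparation, so DMS handling and preparation cannot be told apart.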

Other observations

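Xist, which silences 1 X chromosome in female cells, had 9 sites with enough reads. All 9 were lower in cells, against 99.4% of all sites. They kept a median of 17.1% of their in vitro share, between 6.43% and 48.6%. Of the 9, 2 lost less than the median site, against 8.89% of all sites. Tsix is transcribed across Xist in antisense, and counting by strand is not stated, so reads of both cannot be told apart. Neat1, the scaffold of paraspeckles, had 12 of 12 sites lower and kept 13.5%, and Srrm2, a large splicing protein of nuclear speckles, had 8 of 8 lower and kept 15.1%. Both counts stand beside the 99.4% of all sites that were lower. The 127 sites within 100 bases after a RefSeq start kept 10.4%, against 8.91% at all sites.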
